A study of Mus musculus with 2 samples.

Results

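Integrins, their immunoglobulin-type ligands of the ICAM and VCAM kind, and the endothelial selectins with the ligand gene Selplg were measured in cells sorted as lymph node stroma. The members were all genes whose name in the array files begins with Itga or Itgb, or is an Icam gene, Vcam1, Sele, Selp or Selplg. This rule uses names alone and found 39 genes on 83 probes, of 37008 gene names on 56605 probes. It put 8 genes among the leukocyte integrins (Itgal, Itgam, Itgax, Itgad, Itgae, Itga4, Itgb2 and Itgb7) and 31 genes among the others. The study had 2 samples of female mice, each on 1 single-color array. The normal sample held lymph node cells of mice without a tumor. The tumor-draining sample held cells of the nodes that drain a 4T1 mammary carcinoma, taken 2 weeks after 4T1 cells were placed under the skin at the mammary gland. The labels name C57BL/6 as the host strain. 4T1 is a transplantable mouse carcinoma line known to derive from the BALB/c strain. Cells for both samples were sorted for the absence of CD45, the common leukocyte antigen encoded by Ptprc. The number of mice behind each sample, their age and any pooling are not given in the sources used here.

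Integrins are surface receptors made of an alpha and a beta chain, which bind matrix proteins or ligands on other cells once the adaptors talin and kindlin attach to the tail of the beta chain. The leukocyte integrins bind ICAM, VCAM and addressin molecules, mostly on endothelium and on dendritic or reticular cells, while most other integrins hold stromal and vascular cells to collagen, laminin or fibronectin. Selectins are lectins that start the rolling of leukocytes on venules: E-selectin and P-selectin, encoded by Sele and Selp, sit on activated endothelium, and P-selectin also on platelets, while Selplg encodes the ligand by which leukocytes hold on to them.

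Each value below is the processed signal of a gene's brightest probe, a linear intensity after background subtraction. Each difference is a log2 value of the tumor-draining array less that of the normal array, after each was scaled to its own 75th percentile, which was 374 for the normal and 358 for the tumor-draining sample. With 1 array per group there is no replicate check and no test, and so few arrays limit how precise any value is. A gene is called higher or lower (in the tumor-draining sample) by size alone, at 2-fold, which is 1 on the log2 scale. Of 24656 genes above background on at least 1 array, 11.4% were higher by 2-fold or more and 16.5% lower by as much, with a median difference of 0.10. The spiked-in control RNA, on 6 probes, differed by a median of -0.82. Scaling to the spike-ins thus raises every difference by the size of that value, except some bounds of genes above background on 1 array. Under this scaling the median of all genes was 0.92, and 46.0% of them were called higher and 8.01% lower. Values under the spike-in scaling are therefore given beside the counts. A group's median relative to that of all genes is the same under both, except for the platelet markers (-0.44 and -0.92).

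The labelled cell type was checked against markers. Every marker of fibroblastic reticular, blood endothelial, lymphatic endothelial and mural cells was above background on both arrays, but so were all 8 pan-leukocyte, 8 B cell, 10 T cell, 6 NK cell and 11 myeloid markers, so neither sample was free of leukocyte RNA. The summed signal of the pan-leukocyte markers was 29176 on the normal and 93297 on the tumor-draining array, with 8 of 8 at least 2-fold higher, and that of the T cell markers was 15497 and 71273, with 10 of 10 higher. Of the other leukocyte lists, 6 of 8 B cell and 6 of 6 NK cell markers were called higher. Ptprc itself had signals of 3702 and 17432. The summed signal of 10 blood endothelial markers was 40643 and 5264, with 10 of 10 at least 2-fold lower, and that of 10 fibroblastic reticular markers was 266459 and 88588, also with 10 of 10 lower. Of the other stromal lists, 7 of 7 lymphatic endothelial and 6 of 7 mural markers were called lower. Fewer cells of a type and less RNA per cell cannot be told apart in such bulk samples. How far these shifts in marker levels account for the values of the adhesion genes was not tested.

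**Figure D1:**
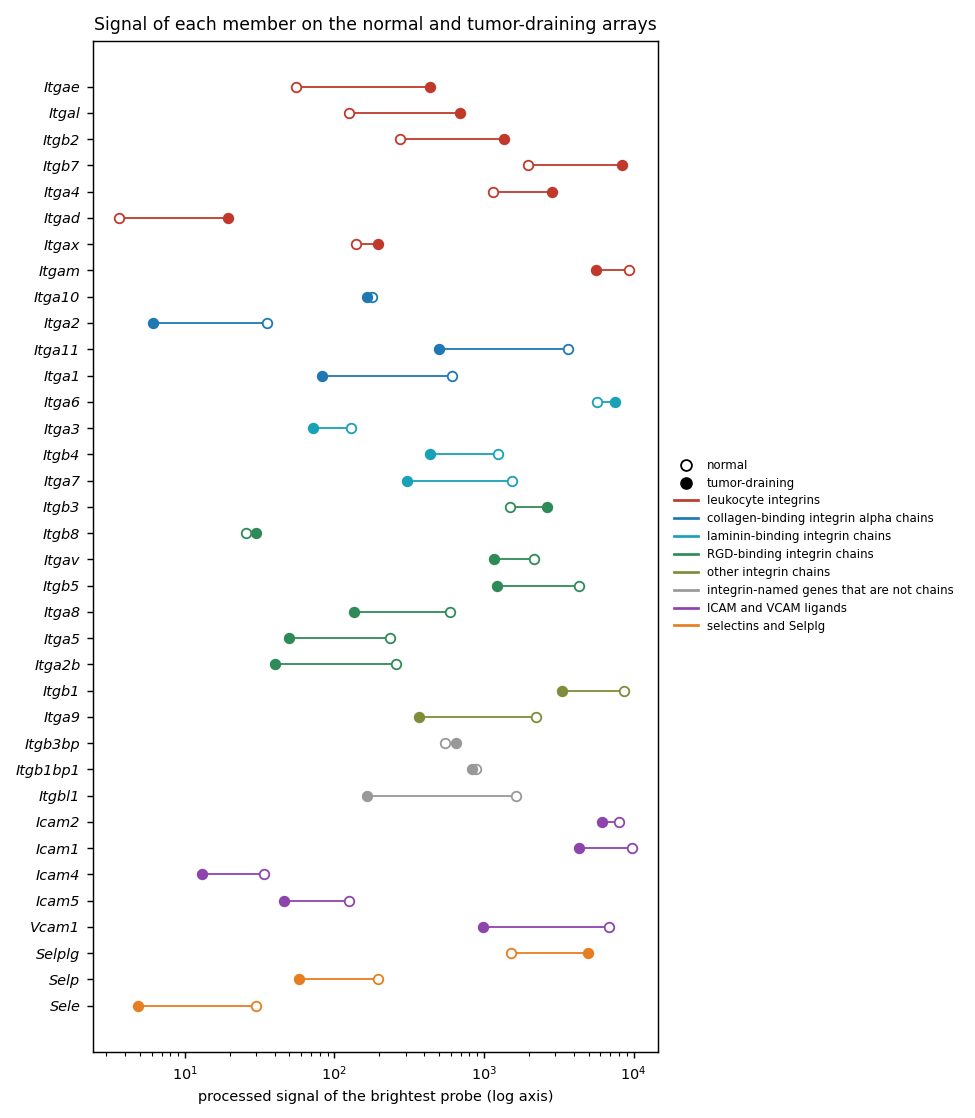
Processed signal (log axis) of the brightest probe of the 36 members above background on at least 1 array, with 1 line per gene, an open circle for the normal array and a filled circle for the tumor-draining array, colored by role. Among the leukocyte integrins the filled circle lies to the right for 7 of 8 genes, with Itgam the exception, while it lies to the left for all 5 ICAM and VCAM ligands. Signals of different probes are not comparable with each other.

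Most leukocyte integrins were higher on the tumor-draining array. There 6 of 8 were at least 2-fold higher and none was 2-fold lower, against 11.4% and 16.5% of all genes. Under spike-in scaling these counts were 7 and 0, against 46.0% and 8.01% of all genes. The median difference of the group was 1.76, or 1.66 relative to all genes. Itgae encodes the alpha E chain, which pairs with the beta 7 chain on T cells that lodge in epithelia and on some dendritic cells. Its signal was 55.0 on the normal and 436 on the tumor-draining array, an 8.26-fold difference. Itgb7, the partner chain, had signals of 1969.6 and 8352, a 4.43-fold difference. Both chains of the receptor that binds E-cadherin were thus higher on the tumor-draining array.

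The chains of lymphocyte function antigen 1, the receptor through which lymphocytes bind ICAM molecules, moved in the same direction and by similar amounts. Itgal, its alpha chain, had signals of 126 and 695, a difference of 2.53. Itgb2, its beta chain, had signals of 276 and 1351, a difference of 2.35. Itga4, the alpha 4 chain, which pairs with beta 1 to bind Vcam1 and with beta 7 to bind the addressin encoded by Madcam1, had signals of 1155 and 2863, a 2.59-fold difference. All 5 of its probes above background on both arrays were higher, by 0.998 to 1.95. The pan-leukocyte list, with a median difference of 1.79, and the T cell list, with one of 2.38, were higher on the same array.

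The chains known from myeloid cells differed less, or were measured on 1 array only. Itgam, the alpha M chain of granulocytes and macrophages, was the single leukocyte integrin with a lower value, with signals of 9252 and 5604 and a difference of -0.66. That difference turned to 0.16 under spike-in scaling and was -1.03 after loess, and a second, dim Itgam probe was at 0.06. Itgax, the alpha X chain of dendritic cells, had signals of 139.5 and 196 and a difference of 0.55, or 1.37 under spike-in scaling. Itgad, a chain of some macrophages, was not well above background on the normal array, at 3.62 against 19.4, and was at least 2.58-fold higher; this bound was 0.37 on the log2 scale with normexp background correction. The beta 2 chain that pairs with all of these was 5.11-fold higher. Of 11 myeloid markers 2 were called higher and 2 lower, with a median of 0.31 and a summed signal of 40726 and 49528. Ly6g, a granulocyte marker, was dim, with signals of 43.8 and 14.8, and was at -1.51. S100a8 and S100a9, much brighter markers of the same list, were at 0.22 and 0.26.

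Outside the leukocyte integrins, 11 of the 17 integrin chains above background on at least 1 array were at least 2-fold lower and none was 2-fold higher, with a median difference of -1.75, or -1.85 relative to all genes. Under spike-in scaling, 8 were lower and 3 were higher (Itga6, Itgb3 and Itgb8). The shares of all genes were 16.5% lower and 11.4% higher, or 8.01% and 46.0% under that scaling. Of 19 integrin chains outside the leukocyte integrins, Itgb6 and Itgb2l were above background on neither array. The 6 chains within 2-fold were Itga3, Itga6, Itga10, Itgav, Itgb3 and Itgb8.

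Collagen receptors had a median difference of -2.42 over 4 alpha chains, 3 of which were at least 2-fold lower under both scalings. Itga1, the alpha 1 chain of smooth muscle cells, pericytes and fibroblasts, had signals of 608 and 82.8, a 7.04-fold difference, and its 4 probes above background on both arrays were all lower, by -2.82 to -1.84. Itga11, a chain of fibroblasts, had signals of 3639 and 500.2 and was 6.97-fold lower, a difference of -2.80, while a second, dim probe was at -1.31. Itga2, a chain of platelets and epithelium, was not well above background on the tumor-draining array, at 35.4 against 6.14, and was at least 4.10-fold lower (-0.54 on the log2 scale with normexp). Itga10, known from cartilage, had signals of 179 and 164 and a difference of -0.07, or 0.76 under spike-in scaling. The 3 lower chains thus stood apart from Itga10. Mural markers, with 6 of 7 at least 2-fold lower, and reticular markers were lower on the same array.

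Laminin-binding chains went different ways. Itga7, known from muscle, had signals of 1549 and 306 and was 4.86-fold lower. Itgb4, the partner of the alpha 6 chain in hemidesmosomes and on some vessels, had signals of 1239 and 433, a difference of -1.46, although a second probe was at -0.14. Itga3 had signals of 129 and 72.1 and a difference of -0.78, which was 0.04 under spike-in scaling. Itga6, the alpha 6 chain of endothelium, epithelium and lymphocytes, had signals of 5684 and 7518, a difference of 0.47. Its 5 probes, all above background on both arrays, ran from -0.86 to 1.67, with an SD of 0.90, so the direction of Itga6 depends on the probe.

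Chains that recognise the RGD peptide of fibronectin and vitronectin had 4 of 7 members at least 2-fold lower, against 16.5% of all genes. Under spike-in scaling 3 were lower and 2 higher, against 8.01% and 46.0% of all genes. Itga5, the classical fibronectin receptor chain, had signals of 235 and 49.8, a difference of -2.18. Itga8, a chain of smooth muscle and mesenchymal cells, had signals of 592 and 136, a difference of -2.06. Itgb5, a vitronectin receptor chain, had signals of 4291 and 1218, a difference of -1.75, or -0.93 under spike-in scaling. Itgav, the alpha chain shared by these vitronectin receptors, differed by -0.81 with signals of 2148 and 1175, and its 3 dimmer probes lay between 0.10 and 0.63. Itgb8, a chain that activates latent transforming growth factor beta, was dim, with signals of 25.5 and 30.0 and a difference of 0.30, while a second probe was at 1.87.

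The platelet receptor chains parted. Itga2b, the alpha IIb chain of platelets and megakaryocytes, had signals of 258 and 40.4 and was 6.11-fold lower. Itgb3, which pairs with it on platelets and with the alpha V chain on endothelium and macrophages, had signals of 1494 and 2650 and a difference of 0.89, or 1.71 under spike-in scaling, and both of its probes were higher. Of 7 platelet markers on the same arrays, 2 were called lower, none higher and 5 within 2-fold, with a median of -0.34. That median is the bound of Gp1ba. Gp5 and Gp9 also have bounds, which are small because their normal signals were dim, so these genes may be lower by more. Without the background filter, 5 of the 7 were lower, with a median of -2.41. The summed signal of the platelet markers was 1186 and 177, most of it from Pf4, at 1105 and 145. Gp6 was at 0.35, and Gp1ba, Gp5, Gp9 and Ppbp were not well above background on the tumor-draining array.

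Itgb1, the beta chain shared by most matrix receptors and by the alpha 4 chain, had signals of 8639 and 3323, a difference of -1.32, or -0.49 under spike-in scaling. Of its 2 brighter probes the second was at -0.82. Itga9, a chain of lymphatic valves and smooth muscle that binds tenascin and Vcam1, had signals of 2211 and 368, a 5.76-fold difference, with both probes lower. Beta 1 was lower while beta 2 and beta 7, the beta chains counted here among the leukocyte integrins, were higher.

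The name rule also took in 4 genes that are not integrin chains. Itgbl1, which encodes a secreted protein with integrin-like repeats, had signals of 1627 and 166 and was 9.38-fold lower, the lowest difference of all 36 members above background. Itgb1bp1, whose product binds the tail of beta 1, differed by -0.02 and Itgb3bp, a centromere protein gene, by 0.32. Itgb1bp2, a muscle gene, was above background on neither array.

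**Figure D2:**
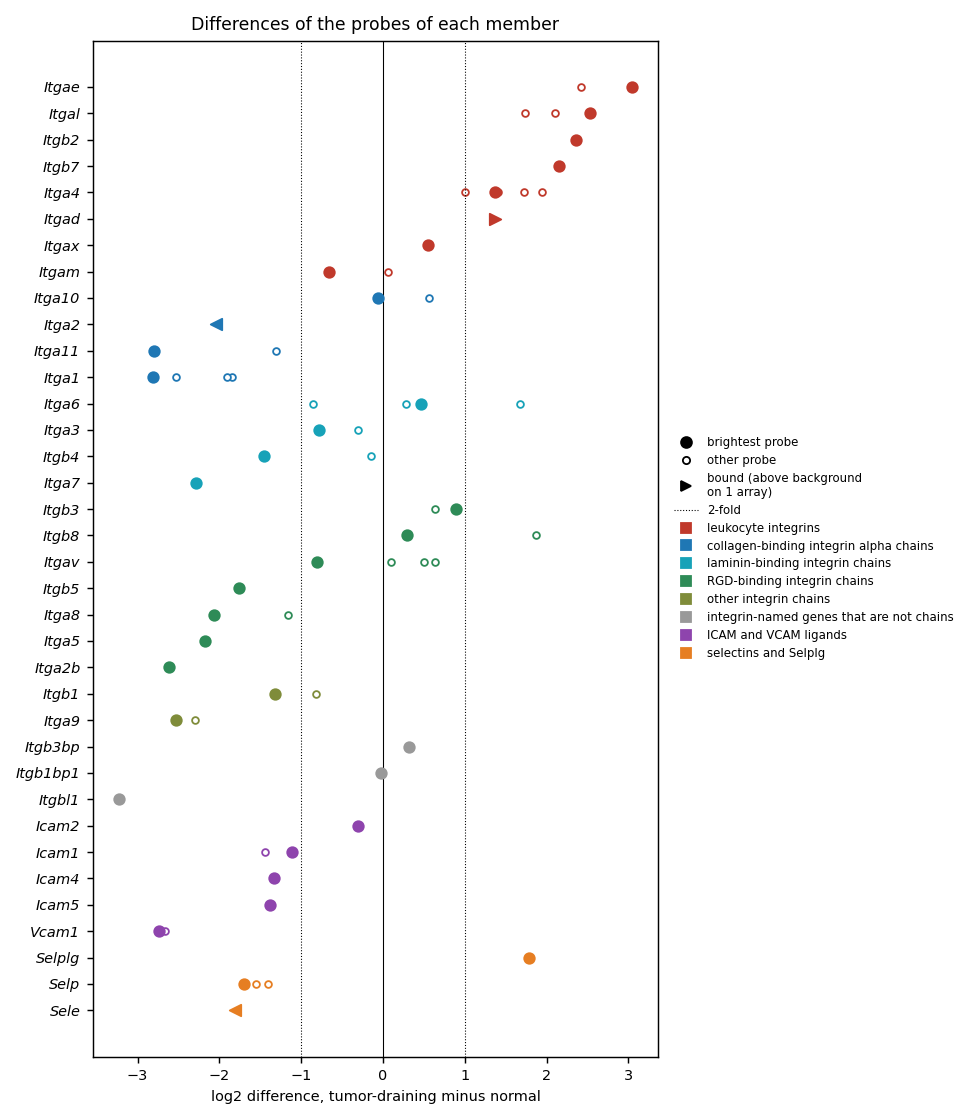
Log2 differences (tumor-draining minus normal) of the probes above background on both arrays for each member, with the brightest probe as a large filled circle, other probes as small open circles, and triangles for the bounds of Itgad, Itga2 and Sele. Dotted lines mark 2-fold. The probes of Itga6 spread from -0.86 to 1.67 and those of Itgb8 from 0.30 to 1.87, whereas both probes of Vcam1 lie close together near -2.7.

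The ICAM and VCAM ligands were all lower on the tumor-draining array, with a median difference of -1.33. Of the 5 genes, 4 were at least 2-fold lower, against 16.5% of all genes. Under spike-in scaling 1 of 5, Vcam1, was at least 2-fold lower, against 8.01% of all genes, and Icam2 turned to 0.51. Vcam1, the ligand of the alpha 4 beta 1 integrin on reticular, follicular dendritic and endothelial cells, had signals of 6899 and 987, a 6.70-fold difference. Its probes lie on chromosome 3, the brighter one spanning 115813216 to 115813275 in mm9, the build of the files, and were at -2.74 and -2.66. Icam1, the inducible ligand of the beta 2 integrins, had signals of 9785 and 4323 and a difference of -1.12, with its other probe at -1.44. Icam2, carried by resting endothelium and by leukocytes, had signals of 7937 and 6128 and a difference of -0.31. Of Icam1 and Icam2, both ligands of lymphocyte function antigen 1, Icam1 thus passed 2-fold and Icam2 did not. Under spike-in scaling neither passed it, with Icam1 at -0.30.

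The remaining ligand genes were dim. Icam4, known from red blood cells, had signals of 34.1 and 13.0 and a difference of -1.33 (-0.31 with normexp). Icam5, known from neurons of the forebrain, had signals of 125 and 46.1 and a difference of -1.38 (-0.78 with normexp). Erythroid markers were lower too, 3 of 5 by 2-fold or more, with a summed signal of 164837 and 63197.

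Both endothelial selectin genes were called lower and the gene of their leukocyte ligand was called higher. Selplg, the ligand of P-selectin on leukocytes, was 3.44-fold higher, with signals of 1506 and 4959. Selp had signals of 196 and 57.9 and a difference of -1.70, with its 3 probes between -1.70 and -1.41. Sele was not well above background on the tumor-draining array, at 30.2 against 4.84, and was at least 3.50-fold lower. Under spike-in scaling Selp was at -0.88 and the bound of Sele at -0.98, both under 2-fold, and with normexp the bound of Sele was -0.50. Selplg was higher, as were the pan-leukocyte markers. Selp and Sele were lower, as were the blood endothelial markers, whose median was -2.97. Lymphatic endothelial, reticular and mural markers were lower too, with medians of -2.31, -2.05 and -2.71, and the platelet median was -0.34. Which cells account for the values of these genes was not tested.

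Icam1, Sele and Selp are textbook targets of inflammatory signals in endothelium, and for these 3 genes, which had lower values on the tumor-draining array, the RefSeq promoter table of build GRCm38.p6 holds the 250 bases before the start. They are shown 5′ to 3′ on the strand of the gene, beside that of Itga4, a leukocyte integrin gene with a higher value. Capitals mark matches on either strand to GGNNNTTCC, a loose form of the site known for the transcription factor NF-kB. The stretches are Icam1 at chr9:21015690-21015939, Sele at chr1:164047984-164048233, Selp at chr1:164115014-164115263 and Itga4 at chr2:79255176-79255425, all on the plus strand.
Icam1: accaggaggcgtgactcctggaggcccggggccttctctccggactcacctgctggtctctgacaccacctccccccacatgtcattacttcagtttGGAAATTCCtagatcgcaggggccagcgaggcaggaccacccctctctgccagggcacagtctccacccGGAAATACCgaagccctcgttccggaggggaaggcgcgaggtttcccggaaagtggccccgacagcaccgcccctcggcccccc
Sele: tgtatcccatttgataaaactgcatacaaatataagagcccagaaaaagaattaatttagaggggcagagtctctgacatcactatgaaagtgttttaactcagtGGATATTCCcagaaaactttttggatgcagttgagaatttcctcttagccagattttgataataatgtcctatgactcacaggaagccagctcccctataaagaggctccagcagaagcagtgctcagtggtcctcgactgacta
Selp: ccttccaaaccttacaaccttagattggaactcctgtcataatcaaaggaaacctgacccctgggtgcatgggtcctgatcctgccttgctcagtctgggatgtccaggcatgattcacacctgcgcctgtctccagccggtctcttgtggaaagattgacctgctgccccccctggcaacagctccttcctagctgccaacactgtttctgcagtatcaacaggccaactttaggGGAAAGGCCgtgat
Itga4: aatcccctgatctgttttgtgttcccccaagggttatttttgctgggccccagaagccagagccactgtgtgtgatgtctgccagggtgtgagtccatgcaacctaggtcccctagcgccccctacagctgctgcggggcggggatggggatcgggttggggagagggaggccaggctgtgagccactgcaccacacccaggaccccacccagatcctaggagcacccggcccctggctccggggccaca

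Icam1 held 2 matches, which begin 153 and 84 bases before the start, Sele held 1 match at 145 bases and Selp 1 match at 14 bases, and Itga4 held none. Of all 32851 promoters in the table, 15.7% held at least 1 match in these 250 bases. The table lists 27 of the 39 members, and 6 of them held a match: Icam1, Sele, Selp, Itga5, Itgb1 and Itgb2l. The lower genes shown were picked as textbook targets of inflammatory signals, so their matches do not stand for the lower members as a set. Of the members listed, Itga1, Itga2, Itga2b, Itga8, Itga9, Itga11, Itgb5, Itgbl1, Icam4 and Icam5 were also called lower and held no match. Vcam1 is not listed. None of the 4 leukocyte integrins listed held one, against 6 of the 23 other members, a difference that was not tested. A match is a run of letters and not a binding site.

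Some members lie close to each other on a chromosome. On chromosome 1 in mm9, the probe of Sele at 165987726 to 165987785 and that of Selp at 166079660 to 166079719 were both lower. On chromosome 9, the probes of Icam1 at 20833186 to 20833245, Icam4 at 20834524 to 20834583 and Icam5 at 20843419 to 20843478 had like differences of -1.12, -1.33 and -1.38. On chromosome 7, Itgal lies at 134477160 to 134477219, and Itgam at 135261755 to 135261814, Itgax at 135294052 to 135294111 and Itgad at 135348901 to 135348960 lie close together. Of these 4 genes, Itgal and Itgad were higher, and Itgax and Itgam were within 2-fold. The files do not state exon or untranslated region for these probes.

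**Figure D3:**
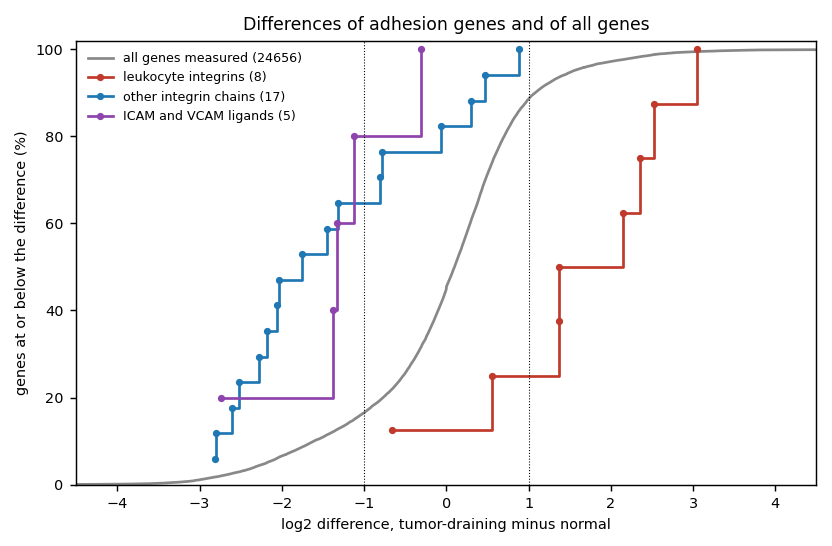
Cumulative share (%) of genes at or below each log2 difference (tumor-draining minus normal) for 8 leukocyte integrins, 17 other integrin chains, 5 ICAM and VCAM ligands and all 24656 genes above background on at least 1 array, with 1 point per member. Dotted lines mark 2-fold. The curve of leukocyte integrins lies to the right of that of all genes, with a median of 1.76, and the curves of the other chains and of the ligands lie to its left, with medians of -1.75 and -1.33.

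Over all 36 members above background on at least 1 array, 7 were called higher and 18 lower, so that 28% of the calls were higher, against 40.9% over all genes. Under spike-in scaling these were 12 and 10 members, or 54.5% of calls higher against 85.2% over all genes. Outside the leukocyte integrins the 28 members above background had a median of -1.42.

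Genes that activate integrins or link them to the cytoskeleton went both ways: of 23 genes, 6 were called higher and 8 lower, with a median of -0.04. Over all genes, 11.4% were higher and 16.5% lower. Under spike-in scaling 11 of the 23 were higher and 4 lower, against 46.0% and 8.01% of all genes, so the count of higher genes was near the share of all genes. Related genes of one family had opposite differences. Fermt3, the kindlin of blood cells, had signals of 187 and 618 and was 3.44-fold higher, while Fermt2, the kindlin of stromal cells, had signals of 4356 and 802 and was 5.21-fold lower, and Fermt1, the kindlin of epithelium, was above background on neither array. Parvg, the parvin of blood cells, was 3.98-fold higher, whereas Parva was 4.02-fold lower and Parvb 3.06-fold lower. Ptk2b, a focal adhesion kinase of leukocytes, was at 1.85 and Ptk2, the widely expressed kinase of that family, at -1.61.

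The highest of these genes were Skap1 (2.37) and Fyb (2.36), which encode T cell adaptors that couple the antigen receptor to integrin activation. The lowest were Lims2 (-2.64), a partner of the integrin-linked kinase, and Fermt2 (-2.38). Lims1, the relative of Lims2, differed by -0.04. Tln1, the talin of most cells including leukocytes, had signals of 14397 and 15768 and differed by 0.19. Tln2 was at -1.31, although its other probe above background on both arrays was at -0.34.

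Other ligands of these receptors were mostly lower, with a median of -2.01. Of 14 genes, 11 were at least 2-fold lower and none 2-fold higher, against 16.5% and 11.4% of all genes. Under spike-in scaling 8 were lower and 2 higher, against 8.01% and 46.0% of all genes. Vtn, the gene of vitronectin, had signals of 4432 and 435 and was 9.77-fold lower, and Podxl, a sialomucin of endothelium, was 8.01-fold lower. The highest values were those of Cdh1 (0.83), which encodes E-cadherin, the ligand of the alpha E beta 7 integrin, and of Thy1 (0.24), a surface protein of T cells and fibroblasts. Enzymes that build selectin ligands had 5 of 10 genes at least 2-fold lower and none 2-fold higher. Under spike-in scaling 2 were lower and 2 higher, again against 8.01% and 46.0% of all genes. Chst2 (-1.90) and Fut4 (-1.82) were lowest and Tpst2 (0.72) and Gcnt1 (0.25) highest. Fut7, a fucosyltransferase needed for selectin ligands on leukocytes and venules, was at -1.37.

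**Figure D4:**
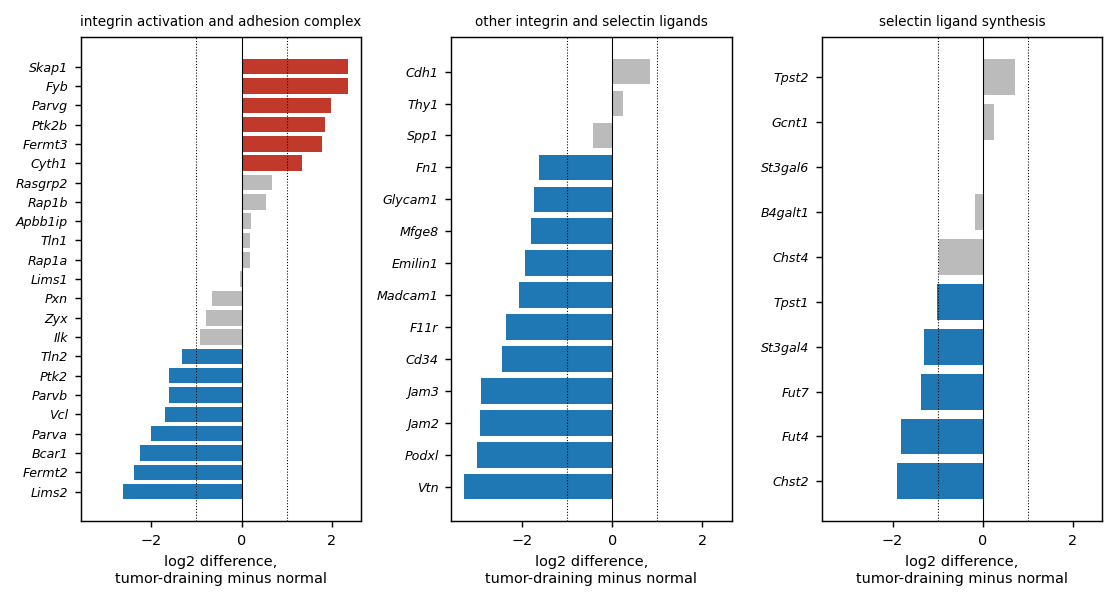
Log2 differences (tumor-draining minus normal) of genes above background on both arrays in 3 lists, with 1 bar per gene, red for at least 2-fold higher, blue for at least 2-fold lower and grey for within 2-fold, and dotted lines at 2-fold. Fyb and Fermt3 stand at 2.36 and 1.78 and Fermt2 at -2.38, and the ligand list runs from -3.29 for Vtn to 0.83 for Cdh1.

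Set side by side, chains of leukocyte receptors and their tissue ligands often, but not always, had differences of opposite sign. For the alpha 4 receptors, Itga4 was at 1.37 and Itgb7 at 2.15. Itgb1, a chain with which alpha 4 binds Vcam1, was at -1.32. The ligand genes Vcam1 and Madcam1 were at -2.74 and -2.08. For the beta 2 receptors, Itgal was at 2.53, Itgb2 at 2.35, Itgax at 0.55 and Itgam at -0.66, against -1.12 for Icam1, -0.31 for Icam2 (0.51 under spike-in scaling) and -2.35 for F11r, a junction molecule bound by Itgal with Itgb2. For the P-selectin ligand, Selplg was at 1.78, against -1.70 for Selp. Cd34 and Glycam1, mucins of high endothelial venules, were at -2.45 and -1.74. Itgae was at 3.05 and its ligand gene Cdh1 at 0.83, so this pair had 1 sign. Cdh1 is expressed by epithelium, and of 8 epithelial or carcinoma markers 2 (Krt5 and Krt14) were called higher and none lower, with a median of 0.24. These pairs were set together from textbook knowledge after the values were known, and both sides were measured in 1 RNA sample per group.

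The spread between probes is the only error the files give for a member, since each of the 83 probes was printed once. Over 19 members with at least 2 probes above background on both arrays, the SD of the difference over probes had a median of 0.44, from 0.06 for Vcam1 to 1.11 for Itgb8, against a median of 0.27 over 7599 genes. In 15 of these members all such probes had 1 sign. The 4 with mixed signs were Itga6, Itgam, Itgav and Itga10, none of which was called higher or lower. Leukocyte integrins had 15 probes with signal above background on each array, of which 11 passed 2-fold upward and none downward. Of 35 such probes of the other integrin chains, 16 passed 2-fold downward and 2 upward, 1 of Itga6 and 1 of Itgb8.

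**Figure D5:**
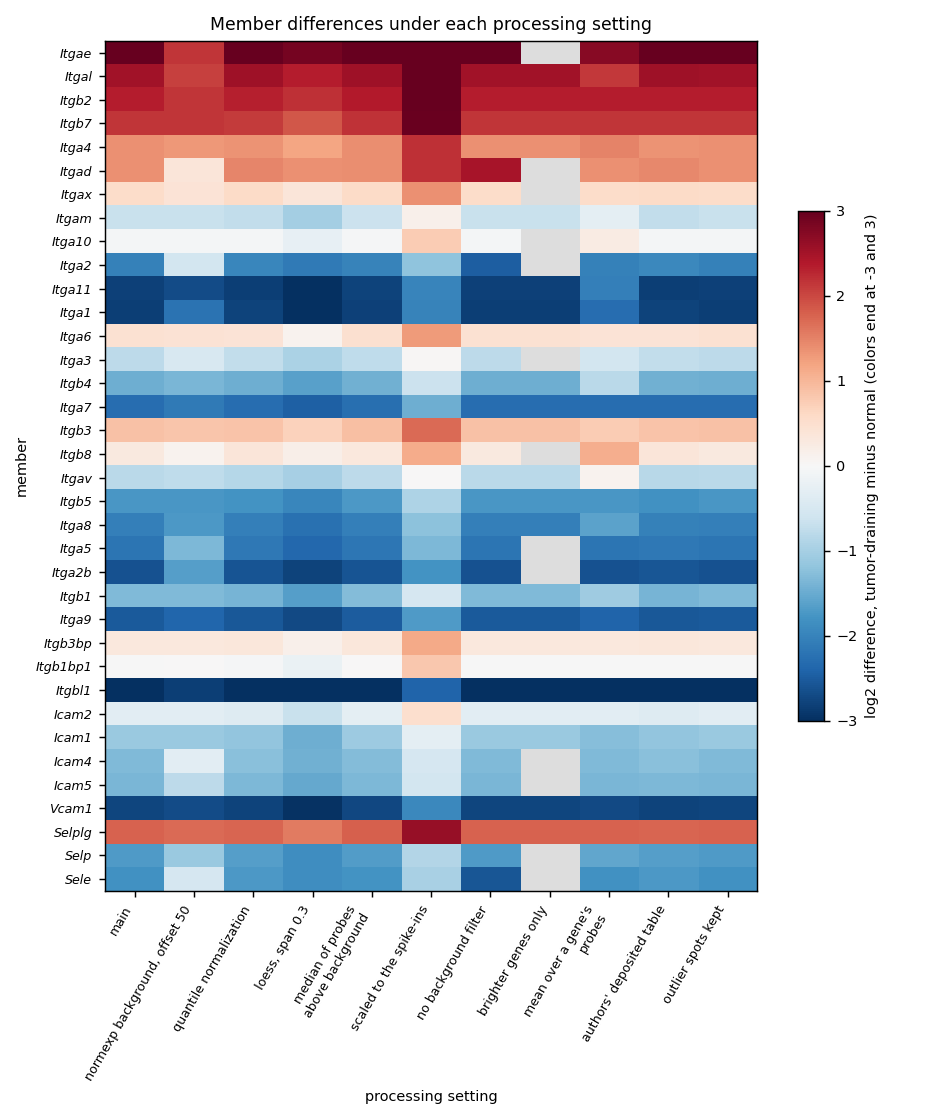
Log2 differences (tumor-draining minus normal) of the 36 members as colors, red for higher and blue for lower, in the main setting and 10 alternatives, with grey where a setting gives no value. The column of the spike-in scaling is shifted toward red for every member, and normexp background correction pales Itgad, Itga2, Icam4 and Sele, which are dim.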

How the data were processed

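Total RNA of the sorted cells was amplified, labelled with Cy3 and hybridized to 1 array per group, per the labels' protocols. Spot intensities in the deposited scanner files are linear and were background-subtracted by Agilent Feature Extraction 12.0.3.1 on mm9 coordinates, per the file headers. Both arrays come from 1 scan. Feature Extraction 10.7 and limma are named in the submitters' processing notes. A value table that the authors deposited is on a log2 scale, with its steps not stated. Its columns had medians of 4.85 and 4.86 and correlated with the scanner values of the same array (r = 0.9999). It was used as an alternative only, and a single-color value has no ratio direction.

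Control spots and outlier spots (98 and 101) were left out, and no non-control spot was saturated. Log2 processed signals were scaled to the 75th percentile of 59305 non-control spots, and a gene was represented by its brightest probe on average. The scanner's mark for signal well above background was required on 50% or more of a probe's spots. Where 1 array was above background the fold is a bound, measured against the dim signal or, if higher, the array's lowest signal above background. Probes were named through RefSeq accession (32994), current symbol (10224) or a synonym of 1 gene (520), and 12867 kept the files' name. The 83 member probes were named by accession (57) or current symbol (26), in each case the same symbol as in the files.

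No statistical test between groups was run. 1 gene of this kind is not reported here. The named genes are all members, the ends of 3 lists of related genes and Ptprc. Other genes of those lists, genes from marker lists, and the paralog and receptor and ligand pairs were picked after their values were seen. Members, lists and alternatives were chosen with earlier results of these data known. The code that makes the 2-fold calls was checked on simulated data. The software was limma 3.58.1 under R 4.3.3, and pandas 2.3.3 with numpy 2.4.6 under Python 3.11.15.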

Additional observations from a re-analysis of the deposited data

How the results depend on the processing

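Of 36 members, 20 kept their side of the 2-fold threshold in every alternative that gave a value, and 28 did so when the spike-in scaling is left out. The calls of all 36 were the same with quantile normalization, scaling to the median of detected probes, no background filter, outlier spots kept and the authors' deposited table. No member called in the main setting changed sign in any alternative. Scaling to the spike-ins gave medians of 2.58 for leukocyte integrins, -0.93 for the other chains (3 higher), -0.51 for ICAM and VCAM ligands (1 lower) and -0.88 for Sele, Selp and Selplg together (0 lower). Normexp (offset 50) gave -1.34 for the other chains, -0.78 for the ligands (2 lower) and -0.50 for Sele, Selp and Selplg (1 lower). Loess (span 0.3) made 1 leukocyte integrin, Itgam, 2-fold lower. Without the background filter the medians were 2.25 for leukocyte integrins and -1.46 for the other chains. Among brighter genes, of which 23 were members, leukocyte integrins had a median of 2.15 and 2 ICAM and VCAM ligands were lower. There the group of Sele, Selp and Selplg turned from a median of -1.70 to 1.78 (0 lower), because Selplg alone was left. The mean over a gene's probes made 1 of the other chains, Itgb8, 2-fold higher and took Itgb4 under 2-fold, and the mean over members gave -1.40 for the other chains and -0.57 for Sele, Selp and Selplg. Spike-in scaling moves the members by the spike-in difference itself. Without the background filter, the leukocyte integrin median moved with Itgad, whose bound of 1.37 gave way to a difference of 2.48. Some alternatives also take in more or fewer genes. The cause of the other shifts was not tested. Dim members are limited by their low signal, and normexp took 5 of them (Icam4, Icam5, Itga2, Itgad and Sele) under 2-fold, while spike-in scaling changed 13 calls, of bright members too. No paired analysis was possible because each group has 1 array.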
